A study of Homo sapiens with 24 samples.

Results

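The 9 genes described here are 6 insulin-like growth factor (IGF) binding proteins, IGFBP2, IGFBP3, IGFBP4, IGFBP5, IGFBP6 and IGFBP7, and 3 receptors, IGF1R, IGF2R and INSR. They were taken by symbol from a count table of 35993 genes, and all 9 symbols were present. They were chosen by family, with earlier results of these data in view: the measured values known then were the J82 levels of IGFBP5, where CD44 High lay below CD44 Low, and CD44v6 below the parental cells. The J82 values of IGFBP5 are therefore given as a description without a test, and counts of J82 members below run over the other 8.

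The series holds 24 RNA sequencing libraries. They come from J82 and RT-112, 2 established lines of human bladder cancer cells, in 4 groups each with 3 biological replicates per group. Besides the parental cells there are newly established lines labelled CD44 Low (low expression of the CD44 receptor), CD44 High (high expression of CD44) and CD44v6 (high expression of its v6 variant). CD44 is a cell-surface receptor for hyaluronan, and v6 is one of its variant exons. The labels do not say how these lines were made or whether each is 1 clone, and each is compared with the parental cells of the same name.

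The binding proteins are secreted proteins that hold the growth factors IGF1 and IGF2 outside the cell, which can keep the ligand from its receptor or carry it there. IGFBP7 binds IGF weakly and is often set apart from the other family members. IGF1R and INSR are receptor tyrosine kinases that signal through insulin receptor substrates to PI3K and AKT, while IGF2R, the mannose 6-phosphate receptor, takes up IGF2 for degradation in lysosomes and carries enzymes there.

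Total counts per library ran from 16752825 to 24419670, and 18891 to 20555 genes had at least 1 count. The 9 genes together held 0.0942% to 0.247% of a library. CD44 itself, given in CPM (counts set to a common library size with TMM factors), lay at 254 to 309 in J82 CD44 Low, 396 to 489 in parental J82, 707 to 764 in CD44 High and 612 to 1070 in CD44v6. In RT-112 it lay at 120 to 152, 293 to 347, 351 to 491 and 378 to 516 CPM. All 3 libraries of CD44 Low thus lay below all parental libraries in both lines. Of 14 epithelial and urothelial markers, 13 reached 1 CPM in each RT-112 group, with UPK3A at 0. In J82, 6 or 7 did, and KRT5, KRT20, UPK2 and UPK3A were at 0 in every library. Other genes of this list were high in J82, with group means of 4170 to 4740 CPM for KRT8, 1550 to 1840 CPM for KRT18 and 1050 to 2820 CPM for KRT7. In RT-112 the same genes had 2110 to 2980, 1300 to 1510 and 3970 to 4820 CPM. EPCAM had 1.11 to 2.3 CPM in J82 and 286 to 409 CPM in RT-112. J82 expressed VIM (231 to 606 CPM as group means), CDH2 (280 to 337 CPM) and ZEB1 (54.8 to 81.6 CPM), markers of a mesenchymal state. In RT-112 the group means stayed at or below 1.88 CPM for VIM, 6.98 CPM for CDH2 and 1.41 CPM for ZEB1. FN1, also on the mesenchymal list, did not separate the lines, with group means of 311 to 422 CPM in J82 and 214 to 706 CPM in RT-112. In bulk RNA, fewer cells of a type and less RNA per cell cannot be told apart.

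The promoters of 5 of the genes are shown first. IGFBP2, IGFBP4 and IGFBP6 moved together in J82, as did IGFBP7, for which no promoter was listed. IGFBP5 moved against them, and IGF2R had the highest level of the receptors. Each line is the 120 bases directly before a transcription start, 5′ to 3′ on the strand of the gene, from RefSeq on GRCh38.p14. Capitals mark matches to the motifs named after them.
IGFBP5: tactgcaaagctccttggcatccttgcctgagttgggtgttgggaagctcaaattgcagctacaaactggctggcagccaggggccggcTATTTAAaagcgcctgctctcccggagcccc
IGFBP2: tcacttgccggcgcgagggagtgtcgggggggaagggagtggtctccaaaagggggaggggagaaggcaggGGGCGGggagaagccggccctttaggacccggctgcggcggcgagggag
IGFBP4: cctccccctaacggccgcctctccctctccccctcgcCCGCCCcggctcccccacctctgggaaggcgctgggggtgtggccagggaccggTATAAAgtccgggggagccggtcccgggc
IGFBP6: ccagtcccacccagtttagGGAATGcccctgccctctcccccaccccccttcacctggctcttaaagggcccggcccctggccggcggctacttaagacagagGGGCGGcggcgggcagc
IGF2R: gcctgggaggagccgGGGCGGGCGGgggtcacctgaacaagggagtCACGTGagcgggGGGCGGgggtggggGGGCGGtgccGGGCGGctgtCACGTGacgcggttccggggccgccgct
The windows lie at chr2:216695550-216695669 on the minus strand for IGFBP5, chr2:216633300-216633419 on the plus strand for IGFBP2 (the middle of 3 listed starts), chr17:40443330-40443449 on the plus strand for IGFBP4, chr12:53097547-53097666 on the plus strand for IGFBP6 and chr6:159968962-159969081 on the plus strand for IGF2R. Promoters were listed for 8 of the 9 members. IGFBP2 and IGFBP5 lie on the same chromosome and on opposite strands, and the start of IGFBP2 shown here has the lower coordinate.

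Each motif was searched on both strands over the 250 bases before the start. The GC box GGGCGG, known as a binding site of SP1, occurs in 42.6% of 35116 promoter windows of that length. The windows shown of IGFBP2, IGFBP4 and IGFBP6 held 1 each and that of IGF2R 6, overlapping copies counted, and IGFBP5 held 0. Of the IGFBP2 starts not shown, the first listed held 1 and the last 0. Among the members not shown, IGFBP3, which fell with IGFBP5 in J82 CD44 High against CD44 Low, held 2, IGF1R 2 and INSR 4. A TATA box written TATAAA, present in 10.7% of windows, was found in IGFBP4 at position -29 from the start. IGFBP5 held the related run TATTTAA at position -31, a string that was added to the search after its sequence had been read and that occurs in 4.17% of windows. The string GGAATG, known from TEAD binding sites and present in 11.9% of windows, was found in IGFBP6 at -101 and on the other strand of IGFBP5 at -235. IGF2R held 3 copies of the E-box CACGTG, which is present in 6.34% of windows. None of the 8 genes held the AP-1 motif TGANTCA, present in 6.57%. The GC content of the 250 bases was 61.2% for IGFBP5 and IGFBP6, 71.6% for IGFBP4 and 79.2% for IGF2R, against a median of 58% over all windows. For IGFBP2 it was 69.2% at the start shown and 56.8% and 56.4% at the others. These are matches of letters only.

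IGFBP5, a binding protein that also attaches to the extracellular matrix, had the widest range of the members in J82, 22.2-fold between the lowest and the highest library, against 20.2-fold for IGFBP4 and at most 7.66-fold for the others. Its 3 parental libraries held 115, 82 and 83.1 CPM. The CD44 Low libraries held 415, 327 and 287 CPM. CD44 High held 28.2, 18.7 and 31.4 CPM, and CD44v6 held 38, 32.2 and 27 CPM. All CD44 Low libraries thus lay above all parental ones, and all parental ones above those of CD44 High and CD44v6, which overlapped each other. The group means were 343 ± 65.3 (SD, n = 3), 93.4 ± 18.8, 26.1 ± 6.62 and 32.4 ± 5.47 CPM for CD44 Low, parental, CD44 High and CD44v6. On the log2 scale the difference was 1.87 (SE 0.21) for CD44 Low against parental, -1.84 (SE 0.21) for CD44 High against parental, -1.53 (SE 0.21) for CD44v6 against parental and -3.71 (SE 0.22) for CD44 High against CD44 Low, a level 13.1-fold lower. These comparisons share libraries, so their values are not independent. In RT-112, IGFBP5 was at 0 in 11 of 12 libraries and had 12 counts in CD44v6 replicate 3. At this depth 3 counts correspond to 0.123 to 0.179 CPM, and levels below that were not detectable.

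Fibroblast markers differed between the same J82 groups. The summed level of 7 fibroblast genes was 1070 to 1390 CPM in CD44 Low, 594 to 669 CPM in parental cells, 431 to 482 CPM in CD44 High and 429 to 553 CPM in CD44v6. CD44 Low, the group with the most IGFBP5, thus also had the highest sum, and CD44 High and CD44v6 overlapped at the bottom. Most of it was COL3A1, a fibrillar collagen, at 1110, 577, 411 and 454 CPM as group means. DCN, a defining fibroblast gene, was at 0 in all J82 libraries, and 4 or 5 of the 7 genes reached 1 CPM. The summed level of the 4 mesenchymal genes did not follow this order. It was 871 to 1110 CPM in CD44 Low, 990 to 1110 CPM in parental cells, 1200 to 1380 CPM in CD44 High and 1110 to 1440 CPM in CD44v6. The part of the fibroblast and mesenchymal genes in the IGFBP5 values was not tested.

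**Figure D1:**
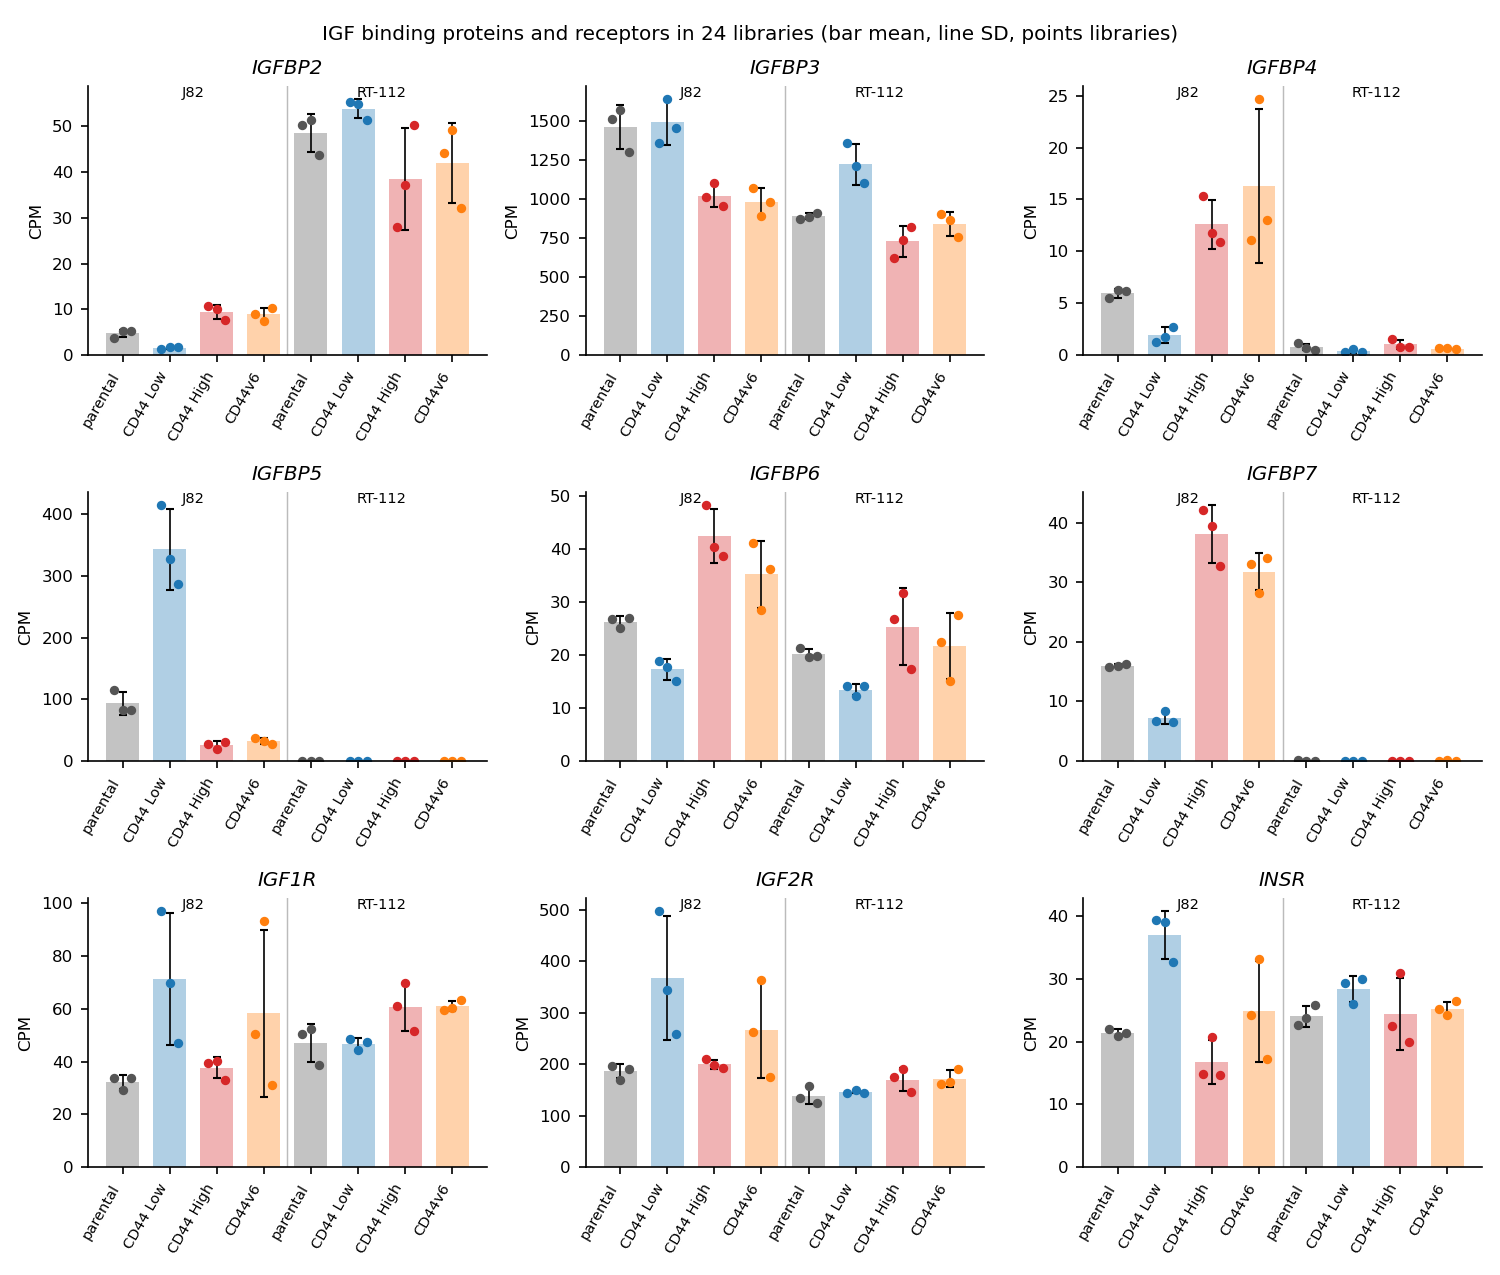
CPM of each of the 9 genes in the 24 libraries; bars are group means, lines SD and points single libraries (n = 3), with J82 left and RT-112 right of the grey line. IGFBP5 reaches 415 CPM in J82 CD44 Low and IGFBP5 and IGFBP7 lie at or near 0 in RT-112.

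The comparison of CD44 High with CD44 Low asks what separates the lines labelled by high and by low CD44. In J82, IGFBP2, IGFBP4, IGFBP6 and IGFBP7 were higher in CD44 High by 2.47-fold to 6.68-fold, and IGFBP3, IGF2R and INSR were lower. Thus 7 of the 8 members tested were called (adjusted p under 0.05 in the quasi-likelihood F test of edgeR, adjusted by Benjamini-Hochberg over all 15951 genes), against 15.7% of all genes called. The 4 called higher stand beside 8.83% of all genes called higher, and the 3 called lower beside 6.9%. The median log2 change over these 8 members was 0.38 and over all genes -0.02. All 8 had groups that did not overlap, as did 34.9% of all genes.

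IGFBP2, a binding protein with an integrin-binding motif, held 1.39, 1.67 and 1.66 CPM in J82 CD44 Low and 10.7, 9.99 and 7.62 CPM in CD44 High. Parental cells held 3.78, 5.2 and 5.24 CPM and CD44v6 held 8.92, 7.5 and 10.2 CPM. CD44 Low lay below every other library, parental cells lay between, and CD44 High and CD44v6 overlapped at the top. CD44 High exceeded CD44 Low by 2.58 on the log2 scale (SE 0.22, adjusted p = 5.93e-06).

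IGFBP4, which is known to restrain IGF action until the protease PAPPA cuts it, held 1.23, 1.73 and 2.75 CPM in CD44 Low against 15.3, 11.8 and 10.9 CPM in CD44 High. Its parental libraries held 5.47, 6.24 and 6.13 CPM, and the CD44v6 libraries 11.1, 24.7 and 13 CPM. As for IGFBP2, CD44 Low lay lowest, parental cells between and CD44 High and CD44v6 overlapped at the top, here with the highest library in CD44v6, replicate 2. CD44 High exceeded CD44 Low by 2.74 on the log2 scale (SE 0.33, adjusted p = 0.000123).

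IGFBP7, found in the matrix around blood vessels, held 15.7, 16 and 16.2 CPM in parental J82 and 6.79, 8.48 and 6.47 CPM in CD44 Low. It held 42.1, 39.5 and 32.7 CPM in CD44 High and 33.1, 28.2 and 34 CPM in CD44v6. No CD44 Low library reached the parental level, and every library of CD44 High and CD44v6 lay above it. Between CD44 High and CD44 Low the log2 change was 2.40 (SE 0.14, adjusted p = 3.43e-07). POLR2B, a gene on the opposite strand, overlaps the annotated gene body of IGFBP7 by 396 bases and reached 3923 counts in a J82 library. Whether counting used strand is not given in the sources used here, and any share of POLR2B reads in these counts was not tested. RT-112, with up to 3335 POLR2B counts, had 4 IGFBP7 counts in all 12 libraries together.

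IGFBP6, which prefers IGF2 over IGF1, had the smallest of the increases. It held 18.9, 17.8 and 15.1 CPM in J82 CD44 Low, 26.9, 25.1 and 27 CPM in parental cells, 48.4, 40.4 and 38.8 CPM in CD44 High and 41.1, 28.6 and 36.3 CPM in CD44v6. The groups followed the same order without overlap between CD44 Low, parental and CD44 High. The log2 change of CD44 High against CD44 Low was 1.31 (SE 0.14, adjusted p = 5.88e-05).

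**Figure D2:**
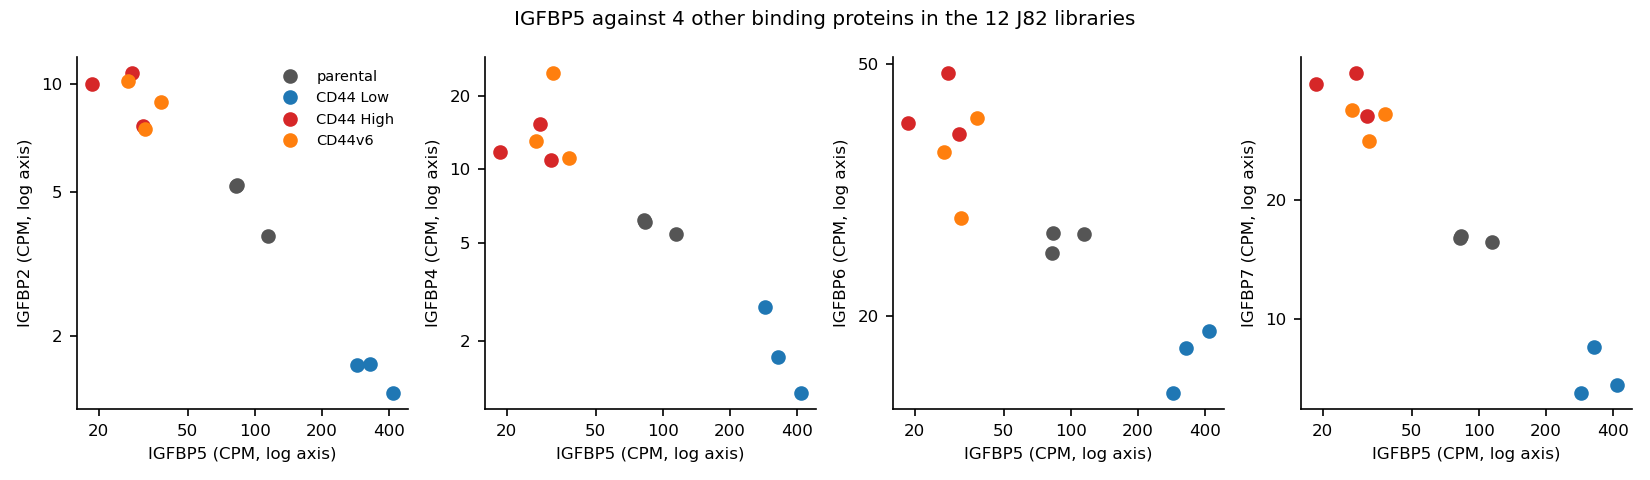
Level of IGFBP2, IGFBP4, IGFBP6 and IGFBP7 against that of IGFBP5 in the 12 J82 libraries, both axes in CPM on log scales, points coloured by group. CD44 Low lies at the lower right, parental cells in the middle and CD44 High and CD44v6 at the upper left.

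Plotted against IGFBP5, these 4 genes ran in the opposite direction over the 12 J82 libraries. As a description, the Pearson correlation of log2 CPM with IGFBP5 was -0.98 for IGFBP2, -0.95 for IGFBP4, -0.92 for IGFBP6 and -0.98 for IGFBP7, and IGFBP2 and IGFBP7 correlated at 0.98. The 12 points share the group differences, so the correlations restate the group order. The genes most like IGFBP5 in this measure, among 9946 compared, were RGS7BP (r = 0.984), MID1 (r = 0.984) and NRK (r = 0.983). Those most like IGFBP4 were STARD10 (r = 0.988), CDCA5 (r = 0.987) and PCDH1 (r = 0.986).

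IGFBP3, the main carrier of IGF in blood, was the most abundant member and changed in both lines in the same direction. In J82 it held 1360, 1640 and 1450 CPM in CD44 Low and 1010, 1100 and 955 CPM in CD44 High. Parental J82 held 1510, 1570 and 1300 CPM, and CD44v6 held 1070, 892 and 978 CPM. Parental and CD44 Low cells overlapped, and both lay above CD44 High and CD44v6. The log2 change of CD44 High against CD44 Low was -0.54 in J82 (SE 0.10, adjusted p = 0.00359).

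In RT-112, IGFBP3 held 1360, 1210 and 1100 CPM in CD44 Low, 872, 884 and 910 CPM in parental cells, 621, 737 and 821 CPM in CD44 High and 901, 862 and 753 CPM in CD44v6. CD44 Low lay above all other RT-112 libraries and CD44 High below the parental ones. CD44 High fell below CD44 Low by 0.71 on the log2 scale (SE 0.10, adjusted p = 0.000912). The difference between the lines in this change was 0.21 (SE 0.15, adjusted p = 0.445), which did not pass the threshold.

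Per kilobase of the longest GENCODE 29 transcript, IGFBP3 was also the most abundant member in every group, at 607 ± 58.6 CPM per kilobase in J82 parental cells and 368 ± 8.02 in those of RT-112 (SD, n = 3). Next came IGFBP6 with 22.4 ± 0.914 in parental J82, and IGFBP2 with 33.7 ± 2.92 in parental RT-112. Among the J82 groups IGFBP5 came second in CD44 Low and in no other, at 55.2 ± 10.5. Among the receptors IGF2R was highest per kilobase in both parental lines, at 13.2 ± 0.991 in J82 and 9.9 ± 1.15 in RT-112, above IGF1R at 2.64 ± 0.214 and 3.85 ± 0.594 and INSR at 2.39 ± 0.0623 and 2.68 ± 0.184.

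The receptors behaved otherwise. IGF2R held 498, 345 and 259 CPM in J82 CD44 Low, 197, 170 and 190 CPM in parental cells, 210, 198 and 193 CPM in CD44 High and 263, 363 and 175 CPM in CD44v6. All CD44 Low libraries lay above those of parental and CD44 High cells, but the 3 replicates differed widely, and CD44v6 overlapped every other group. IGF2R changed by -0.87 between CD44 High and CD44 Low (SE 0.24, adjusted p = 0.0273). The call was lost when any 1 of the 6 libraries other than CD44 Low replicate 3 was left out, with an adjusted p of up to 0.135.

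IGF1R, the receptor that signals for both growth factors, held 97.2, 69.7 and 47.1 CPM in CD44 Low, 33.9, 29.3 and 33.8 CPM in parental cells, 39.6, 40.4 and 33.2 CPM in CD44 High and 50.4, 93.3 and 31.3 CPM in CD44v6. CD44 Low lay above parental and CD44 High cells in all 3 libraries. Its change between CD44 High and CD44 Low, -0.91 (SE 0.32), did not pass the threshold (adjusted p = 0.0704).

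INSR, the insulin receptor, held 39.4, 39.1 and 32.6 CPM in CD44 Low and 14.8, 20.8 and 14.7 CPM in CD44 High. Parental cells held 22, 20.9 and 21.3 CPM and CD44v6 held 24.2, 33.1 and 17.2 CPM. CD44 Low exceeded all parental and CD44 High libraries. The log2 change of CD44 High against CD44 Low was -1.14 (SE 0.20, adjusted p = 0.00213), and it was called in all 6 fits that each omitted 1 library.

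The 3 receptors have long transcripts, of 8954 bases for INSR, 12235 for IGF1R and 14044 for IGF2R, and 2 J82 libraries were rich in long transcripts. The median deviation from the gene mean was compared between 918 transcripts of at least 8000 bases and 1977 of at most 2000. The long ones exceeded the short ones by 0.42 on the log2 scale in CD44 Low replicate 1 and by 0.56 in CD44v6 replicate 2, against -0.21 to 0.11 in the other J82 libraries. These 2 libraries had the highest IGF1R, IGF2R and INSR levels of their groups, for INSR in CD44 Low by a small margin (39.4 against 39.1 CPM in replicate 2). A fit without both was added after the data were seen. In it the log2 change of CD44 High against CD44 Low was -0.58 for IGF2R (adjusted p = 0.0292), -1.08 for INSR (adjusted p = 0.00166) and -0.62 for IGF1R (adjusted p = 0.0563). The part of the length balance in the receptor levels was not tested. The binding proteins, at 1177 to 6215 bases, kept their calls in this comparison without these libraries, with a log2 change of 2.51 for IGFBP2, 2.51 for IGFBP4, 1.38 for IGFBP6, 2.36 for IGFBP7 and -0.59 for IGFBP3.

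**Figure D3:**
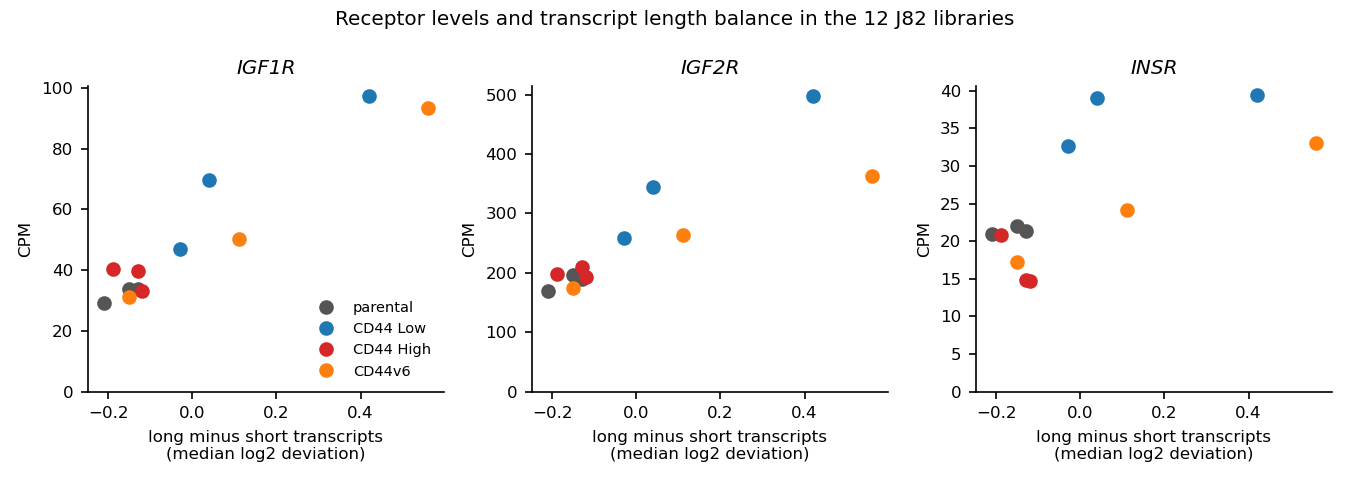
CPM of IGF1R, IGF2R and INSR in the 12 J82 libraries against the length balance of the library (median log2 deviation of long minus short transcripts), coloured by group. CD44 Low replicate 1 at 0.42 and CD44v6 replicate 2 at 0.56 lie farthest right and have the highest level of each receptor in their groups.

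Against parental J82 cells, CD44 Low had 6 of 8 members called, against 5.34% of all genes. IGFBP2 fell by 1.59 on the log2 scale (SE 0.22, adjusted p = 0.00121), IGFBP7 by 1.14 (SE 0.14, adjusted p = 0.000468), IGFBP4 by 1.65 (SE 0.33, adjusted p = 0.0125) and IGFBP6 by 0.61 (SE 0.14, adjusted p = 0.0281). IGF2R rose by 0.98 (SE 0.24, adjusted p = 0.0333) and INSR by 0.79 (SE 0.20, adjusted p = 0.0386), while IGF1R, at 1.14 (SE 0.32, adjusted p = 0.06), did not pass. IGFBP3 stood at 0.02 (SE 0.10, adjusted p = 0.947). Of these calls, IGFBP2 and IGFBP7 were made in all 6 fits that each left out 1 library. The calls of IGF2R and INSR were lost without any 1 of the libraries other than CD44 Low replicate 3, with adjusted p up to 0.154 and 0.148. That of IGFBP6 was lost without any 1 other than CD44 Low replicate 1 (up to 0.102) and with all 24 libraries in the fit (0.0685), that of INSR also with no filter on low counts (0.055), and that of IGFBP4 without parental replicate 2 or CD44 Low replicate 1 or 2 (up to 0.0618).

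CD44 High against parental J82 had 4 of 8 members called, against 2.94% of all genes. IGFBP7 rose by 1.26 (SE 0.13, adjusted p = 0.000641), IGFBP2 by 1.0 (SE 0.20, adjusted p = 0.0177) and IGFBP6 by 0.70 (SE 0.14, adjusted p = 0.019). IGFBP3 fell by 0.52 (SE 0.10, adjusted p = 0.0175). IGFBP4, at 1.09 (SE 0.30, adjusted p = 0.0739), did not pass, although its groups did not overlap. Only the IGFBP7 call was made in all 6 fits that left out 1 library. The others were lost without parental replicate 1, parental replicate 2 or CD44 High replicate 1, with adjusted p up to 0.108 for IGFBP2, 0.0986 for IGFBP3 and 0.107 for IGFBP6. IGFBP2 and IGFBP6 were also lost without CD44 High replicate 2, IGFBP3 without CD44 High replicate 3 and IGFBP6 without parental replicate 3 and with all 24 libraries in the fit (adjusted p = 0.0544).

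CD44v6 against parental J82 also had 4 of 8 members called, against 2.6% of all genes. IGFBP7 rose by 1.0 (SE 0.13, adjusted p = 0.00358), IGFBP2 by 0.91 (SE 0.20, adjusted p = 0.0335) and IGFBP4 by 1.45 (SE 0.30, adjusted p = 0.027), and IGFBP3 fell by 0.58 (SE 0.10, adjusted p = 0.0143). IGFBP6, at 0.43 (SE 0.14, adjusted p = 0.129), and the 3 receptors did not pass. The calls of IGFBP2, IGFBP3 and IGFBP4 were lost without parental replicate 1 or 2, with adjusted p up to 0.177, 0.099 and 0.148. IGFBP2 and IGFBP4 also lost their calls without parental replicate 3, IGFBP2 without CD44v6 replicate 1 and with no filter on low counts (adjusted p = 0.0526), and IGFBP4 without CD44v6 replicate 2, where its log2 change was 1.02. The 3 comparisons with parental cells share the parental libraries.

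CD44v6 differed from CD44 Low in J82 much as CD44 High did, with 5 of 8 members called against 9.58% of all genes. IGFBP2 was higher by 2.50 (adjusted p = 1.08e-05), IGFBP4 by 3.10 (adjusted p = 6.45e-05), IGFBP6 by 1.04 (adjusted p = 0.000507) and IGFBP7 by 2.14 (adjusted p = 1.37e-06) on the log2 scale, and IGFBP3 fell by 0.59 (adjusted p = 0.00247). All 5 were called in each fit that left out 1 library. IGFBP5 stood at -3.40 (SE 0.22). None of the receptors passed: INSR stood at -0.57 (adjusted p = 0.0948), IGF2R at -0.46 and IGF1R at -0.29.

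Between CD44v6 and CD44 High in J82, edgeR called 0 of 8 members and 0% of all genes. DESeq2 called 77 of 25441 genes and 0 of the 8 members, but gave no adjusted p for IGFBP2 and IGFBP4, which it could not call. At an unadjusted p under 0.05 there was 1, INSR, with a log2 difference of 0.56 (SE 0.20, adjusted p = 0.478). The largest difference of a binding protein was 0.36 for IGFBP4 (SE 0.29), and IGFBP5 stood at 0.31 (SE 0.21).

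**Figure D4:**
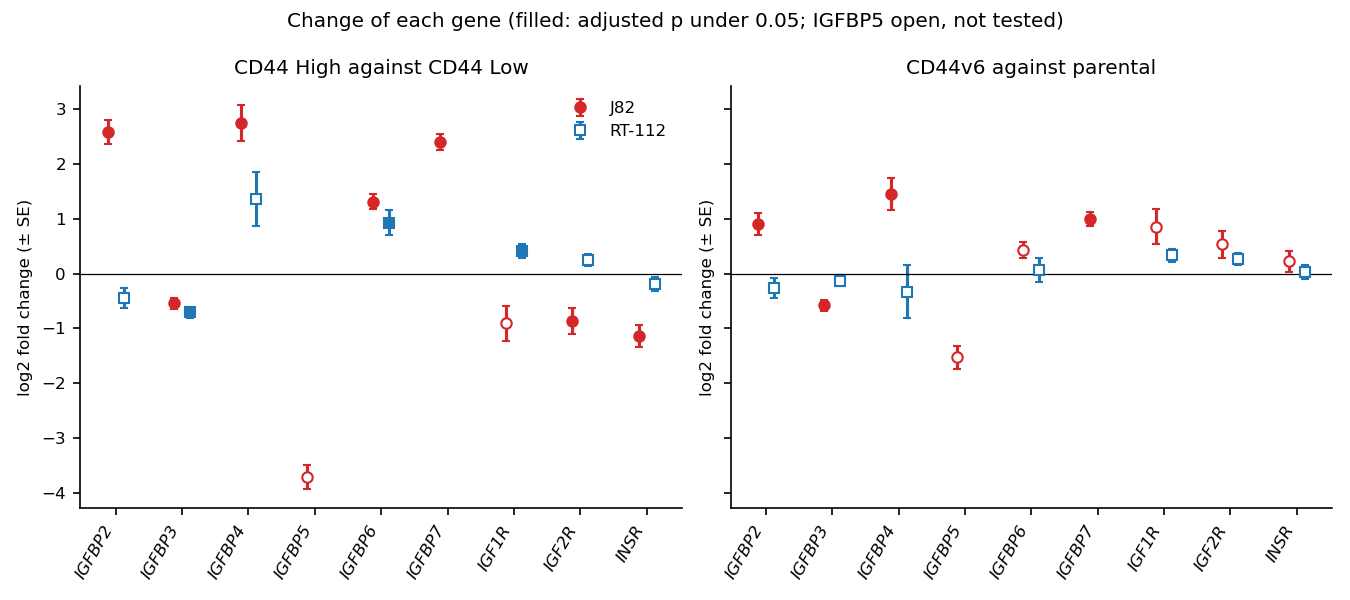
Log2 fold change with its SE of each gene for CD44 High against CD44 Low (left) and CD44v6 against parental (right), circles J82 and squares RT-112, filled where called. IGFBP5 (open circles, not tested) lies at -3.71 and -1.53, and IGFBP5 and IGFBP7 have no RT-112 point because they did not pass the filter on low counts.

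In RT-112 7 of the 9 members passed the filter on low counts, and 3 of these 7 were called between CD44 High and CD44 Low, against 16% of all 15645 genes. They were IGFBP3, described above, IGFBP6 and IGF1R. The median log2 change over the 7 was 0.25 and over all genes 0.02. Of the 7, 5 had groups that did not overlap, as did 30.4% of all genes.

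IGFBP6 held 14.2, 12.3 and 14.1 CPM in RT-112 CD44 Low, 21.3, 19.7 and 19.8 CPM in parental cells, 26.9, 31.8 and 17.4 CPM in CD44 High and 22.4, 15.2 and 27.5 CPM in CD44v6. CD44 Low lay below all other groups, and CD44 High overlapped the parental cells through replicate 3. The log2 change of CD44 High against CD44 Low was 0.93 (SE 0.22, adjusted p = 0.0131), in the direction seen in J82. The difference between the lines was 0.40 (SE 0.28, adjusted p = 0.407). The call was lost without CD44 Low replicate 2 or CD44 High replicate 1 (adjusted p up to 0.0569).

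IGF1R held 48.6, 44.3 and 47.6 CPM in RT-112 CD44 Low and 61, 69.7 and 51.6 CPM in CD44 High, without overlap. Its log2 change of 0.41 (SE 0.12, adjusted p = 0.0411) was lost without any 1 library other than CD44 High replicate 3 (adjusted p up to 0.142). With the replicate number as a block the adjusted p was 0.0571, with no filter on low counts 0.0876, and with all 24 libraries in the fit 0.403.

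IGFBP2, at 28 to 55.3 CPM over the RT-112 libraries, changed by -0.45 between CD44 High and CD44 Low (SE 0.18, adjusted p = 0.115). IGF2R, at 125 to 191 CPM, changed by 0.25 (adjusted p = 0.136), and INSR, at 19.9 to 30.9 CPM, by -0.19 (adjusted p = 0.357). IGFBP4 lay at 0.271 to 1.53 CPM, 5 to 26 counts per library, where its change of 1.36 (SE 0.49, adjusted p = 0.0775) rests on few reads. None of these 4 genes passed the threshold.

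The remaining RT-112 comparisons gave few calls among the members. Against parental cells IGFBP3 rose in CD44 Low by 0.42 (SE 0.10, adjusted p = 0.0413), the 1 member called of 7, against 3.2% of all genes. This call was lost with the replicate block (adjusted p = 0.0865), with no filter (0.0583) and without any 1 library other than CD44 Low replicate 3 (up to 0.189). CD44v6 against CD44 Low again gave 1 of 7, IGFBP3 at -0.55 (SE 0.10, adjusted p = 0.00443), against 16% of all genes. IGFBP6, at 0.67 (adjusted p = 0.0531), and IGF1R, at 0.37 (adjusted p = 0.0552), lay just outside the threshold, and DESeq2 called both (adjusted p = 0.0255 and 0.033).

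For CD44 High against parental RT-112, edgeR and DESeq2 each called 0 of 7 members, against 0.511% of all genes by edgeR, and 3 had an unadjusted p under 0.05. For CD44v6 against parental both tools again called 0 of 7, against 0.614% of all genes by edgeR, with 2 at an unadjusted p under 0.05. CD44v6 against CD44 High gave 0 of 7 by edgeR, by DESeq2 and at an unadjusted p under 0.05, and edgeR called 0% of all genes there. Without CD44 High replicate 2, however, edgeR called 431 genes in this comparison, 9 higher and 422 lower, with 0 members among them.

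Of RT-112's members, the genes most like IGFBP6 across its 12 libraries, among 9889 compared, were SCNN1A (r = 0.97), MAP3K6 (r = 0.955) and CBX2 (r = 0.948). Those most like IGFBP3 were RCN1 (r = 0.985), SDCBP (r = 0.985) and ST3GAL5 (r = 0.983). In RT-112 IGFBP3 and IGFBP6 ran against each other (r = -0.85), as they did in J82 (r = -0.74).

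Between the parental cells of the 2 lines, 4 of 8 members differed, near the 62% of all 17438 genes that did. IGFBP2 was 10.3-fold lower in J82 (log2 -3.36, SE 0.21, adjusted p = 4.37e-12), at 4.74 ± 0.83 against 48.5 ± 4.21 CPM. IGFBP4 was 7.72-fold higher in J82 (log2 2.95, SE 0.37, adjusted p = 4.84e-07), at 5.95 ± 0.416 against 0.777 ± 0.321 CPM, and IGFBP3 1.65-fold higher (log2 0.72, SE 0.11, adjusted p = 5.79e-06). IGFBP7 had 954 counts in J82 and 2 in RT-112 over the parental libraries, a ratio of 488 after scaling to library totals (exact 95% interval from counting error 135 to 4040). IGFBP5 had 5675 against 0 counts, so that it was at least 1940-fold higher in J82 when RT-112 is set at 3 counts over the group. IGFBP6, IGF1R, IGF2R and INSR did not pass, with log2 differences of 0.38 (SE 0.19), -0.54 (SE 0.26), 0.42 (SE 0.20) and -0.17 (SE 0.18).

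The change between CD44 High and CD44 Low differed between the lines for 4 of 8 members in the interaction test over all 24 libraries, against 10.7% of all genes. For IGFBP2 the J82 change exceeded the RT-112 change by 3.06 (SE 0.30, adjusted p = 8.75e-07). IGFBP2 was higher in J82 CD44 High than in CD44 Low, while in RT-112 it lay at 28 to 50.2 CPM in CD44 High and 51.4 to 55.3 CPM in CD44 Low, a change that did not pass the threshold. The 3 receptors differed the other way, IGF1R by -1.29 (SE 0.37, adjusted p = 0.0283), IGF2R by -1.10 (SE 0.29, adjusted p = 0.0156) and INSR by -0.92 (SE 0.26, adjusted p = 0.0258). Leaving out single libraries ended the IGF2R call without J82 CD44 Low replicate 1 (-0.78, adjusted p = 0.0566), the IGF1R call without any 1 of 7 libraries and the INSR call without any 1 of 6, that library among them (adjusted p up to 0.1 and 0.0809). A fit added after the data were seen left out both J82 libraries rich in long transcripts, CD44 Low replicate 1 included. All 3 were called in it, with smaller differences (-0.98, -0.79 and -0.85 for IGF1R, IGF2R and INSR, adjusted p = 0.0117, 0.0135 and 0.0197). The other library, CD44v6 replicate 2, is not part of this contrast, so its removal bears on the shared estimate of the spread and not on the groups compared. For IGFBP4 the difference, 1.42 (SE 0.58, adjusted p = 0.128), did not pass. No interaction is read for IGFBP7 or IGFBP5, whose RT-112 counts were at or near 0. IGFBP7 nevertheless remains among the 8 members over which the interaction calls are counted.

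In the other interaction tests IGFBP2 was called for CD44 Low against parental (-1.73, SE 0.31, adjusted p = 0.00476), 1 of 8 members against 1.06% of all genes. It was also the 1 member called for CD44 High against parental (1.33, SE 0.27, adjusted p = 0.0413), against 0.241% of all genes, a call that 10 of 12 fits leaving out 1 library and the replicate block (adjusted p = 0.0759) did not make. For CD44v6 against CD44 Low, IGFBP2 (2.86, SE 0.30, adjusted p = 3.65e-06) and IGFBP4 (2.47, SE 0.60, adjusted p = 0.0142) were called, 2 of 8 against 7.52% of all genes. The IGFBP4 call was lost without RT-112 CD44 Low replicate 2 (adjusted p = 0.0905). For CD44v6 against parental edgeR called 0 of 8, against 0.138% of all genes, with 3 at an unadjusted p under 0.05, and DESeq2 called IGFBP2 alone. For CD44v6 against CD44 High both tools called 0 of 8, none had an unadjusted p under 0.05, and edgeR called 0.00573% of all genes.

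The ligands of the family were nearly absent from J82. IGF1 had 7 counts over the 12 J82 libraries and 0 in RT-112, and INS was at 0 in both lines. IGF2 had 11 counts over the J82 libraries. In RT-112 it held 108, 111 and 89.1 CPM in parental cells, 36.8, 59 and 60.9 CPM in CD44 Low, 127, 98.2 and 151 CPM in CD44 High and 193, 143 and 131 CPM in CD44v6. CD44 Low lay below all other groups. IGF2 was higher by 1.30 on the log2 scale in CD44 High than in CD44 Low (SE 0.21, adjusted p = 0.00208), and by 1.57 in CD44v6 than in CD44 Low (SE 0.22, adjusted p = 0.000737). The antisense gene IGF2-AS had at most 8 counts in a library. Among the other binding proteins of the family, IGFBP1 had 39 counts in J82 and 0 in RT-112.

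The rest of the pathway was read from 8 lists of 53 genes other than the 9 members, chosen with earlier results of these data known. Between CD44 High and CD44 Low, 13 of the 40 tested in J82 were called, 4 higher and 9 lower, where 15.7% of all genes were called, 8.83% higher and 6.9% lower. In RT-112 12 of 40 were called, 11 higher and 1 lower, where 16% of all genes were called, 9.01% higher and 7.02% lower. The median log2 change of the 40 was -0.22 in J82 and 0.20 in RT-112, against -0.02 and 0.02 over all genes. Of 37 genes tested in both lines, 4 were called in both, 6 in J82 and not in RT-112 and 6 in RT-112 and not in J82.

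Proteases that cut binding proteins, and their inhibitors, changed in J82 in all 4 genes tested, 1 higher and 3 lower. Of all genes, 15.7% were called there, 8.83% higher and 6.9% lower. PAPPA, the protease of IGFBP4 and IGFBP5, held 40.8 ± 3.9 CPM in CD44 Low and 19.5 ± 2.07 CPM in CD44 High and fell by 1.06 (SE 0.21, adjusted p = 0.00449). STC2, a stanniocalcin that inhibits PAPPA, rose by 0.85 (SE 0.11, adjusted p = 0.000217), from 114 ± 14.8 to 205 ± 17.7 CPM. In RT-112 PAPPA had 39 counts in CD44 High and 0 in CD44 Low, at least 15.2-fold higher with CD44 Low set at 3 counts over the group. STC2 was higher there too, by 1.01 (SE 0.30, adjusted p = 0.0358), at 4.87 ± 1.5 against 2.46 ± 0.43 CPM. Of the 4 genes of this list tested in RT-112, 3 were called higher and 0 lower, beside 9.01% and 7.02% of all genes.

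Proteins that share the binding domain of the family were lower in J82 for 3 of 7 tested, higher for 1 and not called for 3. Of all genes, 6.9% were called lower and 8.83% higher. Examples are CCN2 (-0.83, SE 0.23, adjusted p = 0.0262) and CCN3 (-0.71, SE 0.15, adjusted p = 0.00645), matrix proteins of the CCN family. In RT-112 0 of 6 were called, against 16% of all genes. Among adaptors and brakes of the receptors, 2 of 11 were called in J82, near the 15.7% of all genes: IRS1, an insulin receptor substrate, fell by 0.77 (SE 0.17, adjusted p = 0.00678), and GRB10, an adaptor that restrains the receptors, rose by 0.43 (SE 0.12, adjusted p = 0.0246). In RT-112 4 of 11 were called, against 16% of all genes, all higher, among them IRS2, another substrate (0.61, SE 0.14, adjusted p = 0.0111), and SOCS3, a suppressor of cytokine signalling (0.55, SE 0.14, adjusted p = 0.0189).

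Of 12 PI3K and AKT genes, 2 were called in J82, 1 higher and 1 lower, and 2 in RT-112, again 1 higher and 1 lower, shares near the 15.7% and 16% of all genes called. PIK3R1, a regulatory subunit of PI3K, fell in both lines, by 0.40 in J82 (SE 0.13, adjusted p = 0.0482) and by 0.73 in RT-112 (SE 0.14, adjusted p = 0.00498). AKT1, an AKT kinase, rose in J82 by 0.48 (SE 0.09, adjusted p = 0.00329), and MTOR, a kinase of the pathway, rose in RT-112 by 0.84 (SE 0.13, adjusted p = 0.00146). Of the 4 genes for receptor processing and sorting, 0 of 2 tested were called in J82 and 1 of 3 in RT-112, against the same shares of all genes. The RT-112 call was FURIN, the protease that matures the receptors (0.52, SE 0.13, adjusted p = 0.0184). Among the proteins that bind IGF2 mRNA, 1 of 3 tested was called in J82 and 1 of 2 in RT-112, against 15.7% and 16% of all genes. IGF2BP1 fell in J82 by 0.90 (SE 0.26, adjusted p = 0.0337). IGF2BP2 rose in RT-112 by 1.18 (SE 0.09, adjusted p = 2.42e-05), from 37.9 to 83.8 CPM. Leaving out single libraries ended the J82 calls of CCN2, GRB10, PIK3R1 and IGF2BP1 (adjusted p up to 0.0996, 0.0808, 0.194 and 0.153), for all 4 without CD44 Low replicate 1, among others. In RT-112 it ended that of FURIN without replicate 1 or 2 of CD44 Low or of CD44 High, and that of SOCS3 without CD44 Low replicate 2 or 3 or CD44 High replicate 2 (adjusted p up to 0.0777 and 0.0747).

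**Figure D5:**
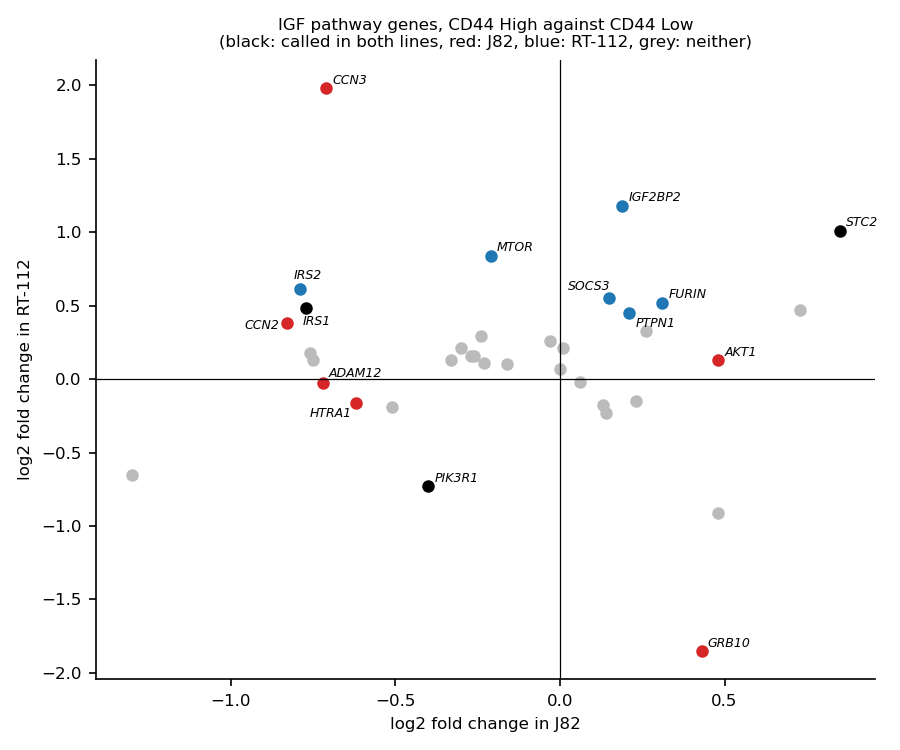
Log2 fold change of CD44 High against CD44 Low in J82 (horizontal) and RT-112 (vertical) for 36 pathway genes other than the members tested in both lines; PAPPA, at 0 in RT-112 CD44 Low, is left out. Of the 4 genes called in both lines, PAPPA included, the plot shows 3 in black, and named red and blue points were called in J82 or RT-112 alone.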

How the data were processed

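The deposited values are raw counts by gene symbol, in 1 table for 24 libraries. Total RNA was isolated on columns and a sequencing service made the reads, per the labels' protocols. HISAT2, StringTie and GRCh37 are named in the submitters' processing notes without role or version. The annotation and the use of strand are not given in the sources used here, and 0 value columns were left unmatched.

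Counts were analysed with edgeR 4.0.16 in R 4.3.3: filterByExpr, TMM factors and quasi-likelihood F tests per line (15951 genes tested in J82 and 15645 in RT-112), with group as the only term, or over all 24 libraries (17438 genes) for contrasts of the lines. Tests were two-sided. P-values were adjusted by Benjamini-Hochberg over all genes, and adjusted p under 0.05 was called. CPM came from TMM factors over all libraries, and the SE of a fold change is its size divided by the square root of F. The common biological coefficient of variation was 0.183 in J82 and 0.152 in RT-112. At this depth, intervals and floors cover counting error only.

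The members and lists were chosen with earlier results of these data known. The 9 members are named in every group. From the lists, at most 2 genes per list and line are named, those called with the largest change between CD44 High and CD44 Low at an average log2 CPM of at least 3 (prior count 2). PAPPA and STC2 in RT-112 and IGFBP1 are named beside them. Some genes of the lists are not reported here and enter no list count. Likeness is the Pearson r of log2 CPM over 12 libraries. Transcript lengths and overlaps are from GENCODE 29 and promoters from RefSeq, matched by symbol.

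Same-numbered libraries were checked for pairing: deviations from group means correlated above 0.1 in every pair only between J82 CD44 Low and CD44 High (0.2, 0.28 and 0.3), which comes from the data and not the labels. Chi-square per degree of freedom over 24 replicate pairs was 6.42 to 63.7, so none were repeats. Alternatives were median-of-ratios factors, no filter, DESeq2 1.42.0, a replicate block, all 24 libraries and leaving out each library. After the data were seen, a fit without J82 CD44 Low replicate 1 and CD44v6 replicate 2 was added. The fits were tested on simulated data.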

Additional observations from a re-analysis of the deposited data

Results flagged for a closer look

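The changes that differed between the 2 cell lines, by the interaction test over 24 libraries (edgeR, adjusted over 17438 genes), concern IGFBP2, IGFBP4 and the receptors. Values are the J82 log2 change minus that of RT-112. For IGFBP2 they were -1.73 for CD44 Low against parental (adjusted p = 0.00476), 1.33 for CD44 High against parental (adjusted p = 0.0413), 3.06 for CD44 High against CD44 Low (adjusted p = 8.75e-07) and 2.86 for CD44v6 against CD44 Low (adjusted p = 3.65e-06). These 4 contrasts share libraries. The call for CD44 High against parental was lost with the replicate block and in most fits that left out 1 library, as given above. For CD44 High against CD44 Low the receptors differed by -1.29 (IGF1R, adjusted p = 0.0283), -1.1 (IGF2R, adjusted p = 0.0156) and -0.92 (INSR, adjusted p = 0.0258). These calls were not made without J82 CD44 Low replicate 1 alone. With that library and CD44v6 replicate 2 both left out, in a fit added after the data were seen, they were made (adjusted p = 0.0117, 0.0135 and 0.0197). The differences were smaller in that fit, and CD44v6 replicate 2 is not part of this contrast. The IGF1R and INSR calls were also lost without other single libraries, as given above. IGFBP4 differed by 2.47 for CD44v6 against CD44 Low (adjusted p = 0.0142), with 26 counts over its 3 RT-112 CD44 Low libraries, and lost the call without RT-112 CD44 Low replicate 2 (adjusted p = 0.0905).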

How the results depend on the processing

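No member changed direction in any comparison where it was called under at least 1 setting (60 pairs of member and comparison). Among the 86 pairs called under none, the sign differed 58 times. Leaving out 1 library, the number of members called ran from 2 to 6 (J82 CD44 Low against parental, 6 with all libraries), 1 to 3 (CD44 High against parental, 4), 1 to 5 (CD44v6 against parental, 4), 6 to 8 (CD44 High against CD44 Low, 7) and 5 to 6 (CD44v6 against CD44 Low, 5). In RT-112 it ran from 0 to 1 (CD44 Low against parental, 1), 1 to 5 (CD44 High against CD44 Low, 3) and 1 to 2 (CD44v6 against CD44 Low, 1). For the interaction it ran from 1 to 2 (CD44 Low against parental, 1), 0 to 1 (CD44 High against parental, 1), 1 to 4 (CD44 High against CD44 Low, 4) and 1 to 4 (CD44v6 against CD44 Low, 2). With the replicate block, 0 members were called for RT-112 CD44 Low against parental and for the interaction of CD44 High against parental. The block also called IGF1R for J82 CD44 Low against parental (adjusted p = 0.0418), INSR for J82 CD44v6 against CD44 Low (0.0347) and IGF2R between the parental lines (0.022), and it changed no member call for J82 CD44 High against CD44 Low. With no filter 0 were called for RT-112 CD44 Low against parental, and the calls of INSR for J82 CD44 Low against parental (0.055), IGFBP2 for J82 CD44v6 against parental (0.0526) and IGF1R for RT-112 CD44 High against CD44 Low (0.0876) were lost. DESeq2 called 3 for RT-112 CD44v6 against CD44 Low, 2 for the interaction of CD44 Low against parental and 1 for that of CD44v6 against parental, and it also called IGF1R for J82 CD44 Low against parental (0.0384) and IGFBP4 for J82 CD44 High against parental (0.014). The fit on all 24 libraries called 2 for RT-112 CD44v6 against CD44 Low. It lost IGFBP6 for J82 CD44 Low and CD44 High against parental (0.0685 and 0.0544) and IGF1R for RT-112 CD44 High against CD44 Low (0.403), and called IGF1R for J82 CD44 Low against parental (0.0122) and CD44 High against CD44 Low (0.0211). The cause was not tested. Over all genes, leaving out 1 library moved the count called between CD44 High and CD44 Low from 2508 to 1578 at the lowest in J82 (without CD44 High replicate 2) and from 2507 to 1230 in RT-112 (without CD44 High replicate 1), and that of RT-112 CD44v6 against CD44 Low from 2504 to 1004 (without CD44v6 replicate 3). Without RT-112 CD44 High replicate 2 the count for CD44v6 against CD44 High went from 0 to 431 in RT-112 and from 1 to 395 in the interaction. The count for J82 CD44v6 against parental, 415, ran from 32 (without parental replicate 1) to 1120 (without CD44v6 replicate 3). Under the other settings counts moved by over 1.5 times as follows. DESeq2 called 1454, 900 and 1007 genes in J82 CD44 Low, CD44 High and CD44v6 against parental (852, 469 and 415 by edgeR) and 957, 277 and 578 in RT-112 (500, 80 and 96). It called 77 and 2 genes between CD44v6 and CD44 High in J82 and RT-112 (0 and 0), and 556, 226, 453, 2085 and 64 in the interactions of the 3 parental comparisons and of CD44v6 against Low and against High (185, 42, 24, 1312 and 1). With all 24 libraries the counts were 740 (J82 CD44v6 against parental), 5 (J82 CD44v6 against CD44 High) and 237 (RT-112 CD44v6 against parental). With the block they were 303 and 58 (RT-112 CD44 Low and CD44v6 against parental) and 2 (interaction of CD44v6 against CD44 High), and with no filter 253 and 60 (CD44v6 against parental in J82 and RT-112). Without the 2 J82 libraries rich in long transcripts they were 933 and 257 (J82 CD44 High and CD44v6 against parental) and 105 (interaction of CD44 High against parental), and this fit also called IGF1R for J82 CD44 Low against parental (0.0324), IGFBP4 for CD44 High against parental (0.00732), IGFBP6 for CD44v6 against parental (0.0435), INSR for CD44v6 against CD44 Low (0.0309), IGF1R and IGF2R between the parental lines (0.00376 and 0.0171) and IGF1R in the interaction of CD44v6 against CD44 Low (0.0448). With 3 libraries a group, a p that misses the threshold does not show that levels were equal, and depth limits IGFBP4, IGFBP5 and IGFBP7 in RT-112.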
